A study of Homo sapiens with 16 samples.

Results

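The mitochondrial genome encodes 37 RNAs, namely 2 ribosomal RNAs, 22 transfer RNAs and 13 messenger RNAs, and these RNAs were examined in hPSC-CMs (human pluripotent stem cell-derived cardiomyocytes) held in different culture media. The members are all genes of the mitochondrial genome, listed by where they are encoded, although the set was chosen with earlier results of these data known. Values were at hand for 24 of them, the ribosomal RNAs RNR1 and RNR2 and the 22 tRNAs, among 43388 genes in all, and the 13 mRNAs were not analysed here. A mean of at least 1 TPM (transcripts per 1000000, reads divided by gene length and scaled to the same total in each library) over the 16 libraries was reached by 23 of the 24, all but TRNV.

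The cells came from the induced pluripotent line WTC11, taken through a single differentiation by the GiWi protocol. There were 4 groups of 4 wells. The first was collected on Day 16 in standard RPMI/B27, and the others on Day 30 after culture from Day 16 in HPLM/B27 (human plasma-like medium), in RPMI_glcM/B27 (RPMI with 5 mM glucose) or in standard RPMI/B27. All groups therefore share the line, its wild-type genotype, the B27 supplement and the culture up to Day 16, and with wells of the same differentiation a p-value measures the spread between wells only. The series description gives 3 wells per medium, whereas the labels name 4, and none of the 16 libraries was left out.

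Mitochondrial DNA is transcribed from both strands as long precursors that hold rRNAs, mRNAs and tRNAs in a row. The tRNAs sit between the longer RNAs, and their excision at both ends by processing enzymes releases their neighbours, an arrangement known as tRNA punctuation. The ribosomal RNAs form the core of the mitochondrial ribosome, which makes subunits of the respiratory chain on which a beating cardiomyocyte draws for ATP. In RNA-seq a read on a tRNA gene can stem from a precursor as well as from a mature tRNA, whose modified bases and short length hinder reverse transcription and library making, and the gene counts used here do not tell these apart.

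The tRNA genes on which the results turn are printed as RefSeq places them on hg38, in DNA letters from 5′ to 3′ on the strand of the tRNA and with the anticodon in capitals. TRNI, TRNT, TRNR and TRNL1 carry the differences between groups. TRNS1 and TRNC varied with RNR1 from library to library, and unlike the first 4 they lie on the opposite strand of the map.
TRNI: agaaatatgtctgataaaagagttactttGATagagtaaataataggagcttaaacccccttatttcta
TRNT: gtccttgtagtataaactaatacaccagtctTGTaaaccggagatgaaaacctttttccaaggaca
TRNR: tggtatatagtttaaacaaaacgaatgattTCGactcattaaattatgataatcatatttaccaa
TRNL1: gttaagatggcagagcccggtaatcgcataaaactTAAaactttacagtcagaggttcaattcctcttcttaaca
TRNS1: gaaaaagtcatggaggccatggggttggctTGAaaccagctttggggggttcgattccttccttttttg
TRNC: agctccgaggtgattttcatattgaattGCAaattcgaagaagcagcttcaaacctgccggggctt

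TRNI (isoleucine) is at chrM:4263-4331 on the plus strand and overlaps TRNQ of the minus strand by 3 bases. TRNT (threonine) is at chrM:15888-15953, TRNR (arginine) at chrM:10405-10469 and TRNL1 (leucine, UUR codons) at chrM:3230-3304, all on the plus strand. TRNS1 (serine, UCN codons) is at chrM:7446-7514 and TRNC (cysteine) at chrM:5761-5826, both on the minus strand. None of these genes has an intron or an untranslated region, and each is transcribed within a longer precursor.

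Read depth set what could be seen. A whole number of reads was recovered behind each of the 353 member values above 0, to within 0.01 read. It came from the annotated gene length and the TPM step of a single read in each library, read off small RNA genes. Libraries held 7744783 to 16183695 reads on genes, and the 24 mitochondrially encoded RNAs with values took 23.3% to 37.0% of them. The 12 cardiomyocyte markers were all detected, with a sum of 11993 to 16106 TPM. Fibroblast-like markers (8 of 12 with a mean of at least 1 TPM) summed to 546 to 923 TPM on Day 16 and 179 to 440.4 TPM on Day 30, and endothelial-like markers (1 of 10) to 42.8 to 54.9 and 14.2 to 32.9 TPM, both lower on Day 30 without overlap. Hepatic endoderm-like markers (12 of 15) summed to 487 to 863 TPM on Day 16, 332 to 587 in Day 30 RPMI/B27, 96.1 to 221 in RPMI_glcM/B27 and 73.9 to 215 in HPLM/B27, so that RPMI/B27 alone overlapped with Day 16 and lay above the other media. Smooth muscle-like markers (6 of 7) summed to 503 to 991 TPM on Day 16, 294 to 1081 in Day 30 RPMI/B27, 326 to 434 in RPMI_glcM/B27 and 355 to 569 in HPLM/B27, with RPMI_glcM/B27 below all Day 16 libraries. FAP, MYH11 and VWF were at 0 in all libraries of at least 1 group. The part of these lists in the differences below was not tested. In bulk RNA, fewer cells of a type and less RNA per cell cannot be told apart.

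RNR2, the large rRNA of the mitochondrial ribosome, was the most abundant RNA of every library by TPM among the members and varied little on the TPM scale. On Day 16 it was at 423058, 420160.3, 413798 and 439149.9 TPM, and on Day 30 at 410329.9, 410438, 438663 and 481016 TPM in RPMI/B27. In RPMI_glcM/B27 it was at 420249, 428251, 435446 and 455224 TPM and in HPLM/B27 at 461987, 466635, 483359 and 481043 TPM. RNR2 thus made up 41.0% to 48.3% of all TPM, a range of 1.18-fold that rests on 2158871 to 4916385 reads per library. A share of a fixed total cannot vary independently of the other RNAs, and the part of the scale in the narrow range was not tested. The HPLM/B27 libraries lay above all Day 16 and all RPMI_glcM/B27 libraries and overlapped with RPMI/B27, whose replicate 4 reached 481016 TPM. In limma the log2 fold change of HPLM/B27 was 0.16 (standard error 0.09, adjusted p = 0.181) against Day 16 and 0.12 (standard error 0.09, adjusted p = 0.894) against RPMI_glcM/B27, so neither difference passed the threshold of 0.05. With limma-voom on recovered reads the value against Day 16 was 0.29 (adjusted p = 0.0144). Over the 11 alternatives that kept all libraries it ran from 0.13 to 0.51, and 1 of them passed the threshold.

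RNR1, the small rRNA, spread over a far wider range within every group. On Day 16 it was at 127, 49.5, 121 and 3793 TPM and on Day 30 in RPMI/B27 at 1545, 619, 14387 and 29276 TPM. The RPMI_glcM/B27 libraries held 225, 355, 4872 and 6806 TPM and the HPLM/B27 libraries 6359, 138, 203 and 5889 TPM. Every group held both low and high libraries, and the highest was 592-fold above the lowest, on 189 to 152479 reads. Per base of the gene, RNR2 exceeded RNR1 by 16.4-fold to 8497-fold, although both are cut from the same precursor and joined in equal number in the ribosome. RNR1 had a log2 fold change of 4.26 between Day 30 and Day 16 in RPMI/B27 with a standard error of 1.66 (limma, adjusted p = 0.0778), and it passed in none of the 6 comparisons. This call turned with the fit, at 4.44 (adjusted p = 0.0282) with limma-voom on recovered reads and at an adjusted p of 0.0319 when genes with a mean under 10 reads were left out. With each library left out in turn the adjusted p was 0.0251 to 0.251, under 0.05 without replicate 4 of Day 16 or replicate 2 of Day 30 RPMI/B27. The library kit removes ribosomal RNA before sequencing, and the small mitochondrial rRNA is among its targets while the large rRNA is not. The part of that removal in the spread of RNR1 was not tested. The precursor of the cytosolic rRNA, counted on RNA45SN4 at 152 to 371 TPM, was lowest in the library of highest RNR1 in 3 of 4 groups, and in Day 30 RPMI/B27 it was highest, at 242 TPM, in replicate 3, which held 14387 TPM of RNR1.

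**Figure D1:**
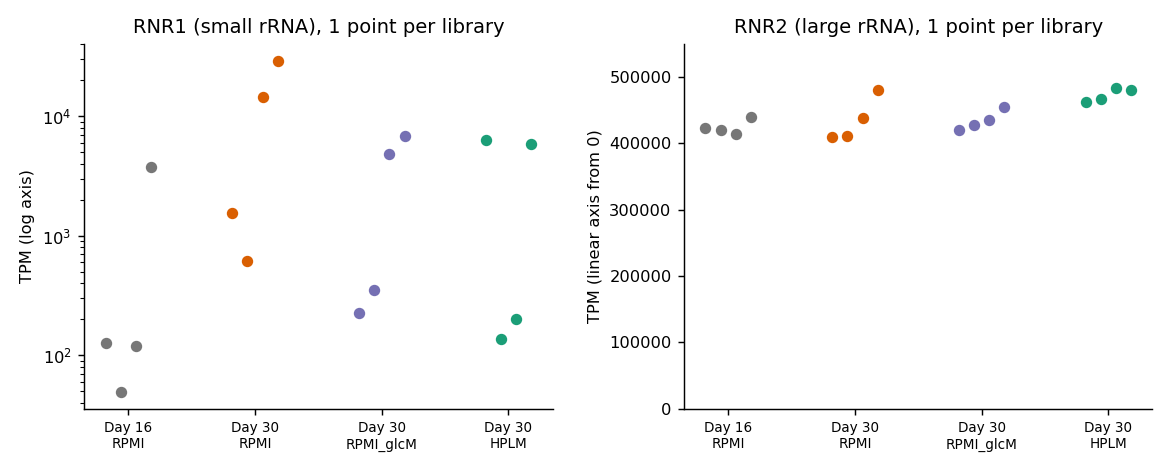
TPM of RNR1 (log axis) and RNR2 (linear axis from 0) in each of the 16 libraries, with replicates 1 to 4 from left to right in each group and 1 point per library. RNR1 ran from 49.5 to 29276 TPM with low and high libraries in every group, whereas RNR2 stayed between 410329.9 and 483359 TPM.

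Reads on the 22 tRNA genes added up to 2119 to 9719 per library and 8486 to 22426 TPM. Read numbers differed widely between tRNAs, from TRNS1 with a median of 610.5 reads per library and TRNR with 521 to TRNF and TRNV with a median of 0. TRNV (valine) was listed at 0 in 14 libraries and had 1 and 5 reads in replicates 3 and 4 of Day 30 RPMI/B27, the libraries of highest RNR1. TRNF (phenylalanine) never exceeded 2 reads and TRNQ (glutamine) never exceeded 3. At these depths a count of 0 allows up to 3 reads, or 6.05 to 13.7 TPM for a gene as short as TRNV, so that levels of these 3 tRNAs could not be compared.

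The number of reads went with the position of a tRNA on the map. The 6 tRNAs with another rRNA or tRNA gene within 50 bases on both sides (TRNV, TRNQ, TRNA, TRNN, TRNC and TRNS2) had median counts of 0 to 30.5 reads, with a middle value of 6. The 12 with such a gene on a single side ranged from 0 to 610.5 reads with a middle value of 104.5, and the 4 with none (TRNK, TRNG, TRNR and TRNE) from 110.5 to 521 with a middle value of 264.25. The 50-base window was set after the values had been seen, and the tRNAs of a cluster share a precursor and its reads. By default the authors' counting tool leaves out a read that touches genes on either side of a boundary, and the setting used is not given in the sources used here. Levels of different tRNAs are therefore not compared further, and the comparisons below are between groups for the same gene.

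**Figure D2:**
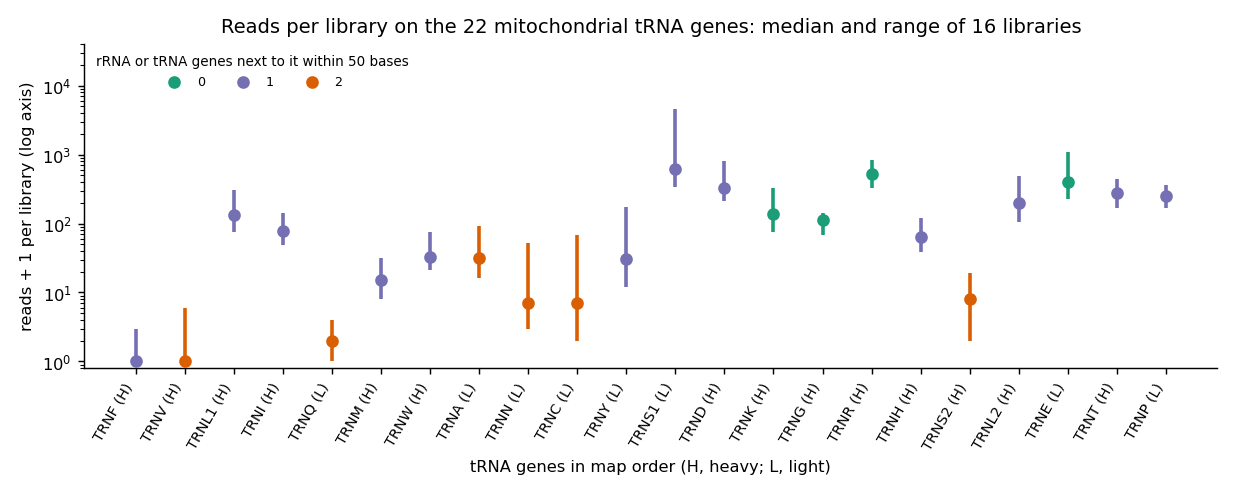
Reads per library plus 1 (log axis) on each of the 22 tRNA genes in map order, with the median of 16 libraries as a point and their range as a line. Colours give the number of sides (0, 1 or 2) with another rRNA or tRNA gene within 50 bases, and the tRNAs with 2 such sides had medians of 0 to 30.5 reads.

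Both strands of the mitochondrial genome are named for their base content, and 14 tRNAs of the set belong to the heavy-strand transcript and 8 to the light-strand transcript. The libraries were made with a stranded kit, but the strand setting of the counting is not given in the sources used here. Reads on microRNA genes inside introns bear on it. The 18 such genes that lie opposite to a host gene of at least 20 TPM had a median of 17 reads over the 16 libraries (16 of 18 with reads), and the 203 in the direction of their host had 10 (150 of 203 with reads). Genes opposite to their host thus held no fewer reads, and here reads of a light-strand tRNA cannot be told apart from reads of the heavy-strand precursor across the same bases.

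TRNI, the isoleucine tRNA, was highest in HPLM/B27. The HPLM/B27 libraries held 376, 398, 394 and 387 TPM. On Day 16 it was at 312, 217, 239 and 259.5 TPM, in Day 30 RPMI/B27 at 186, 193, 242 and 209.7 TPM and in Day 30 RPMI_glcM/B27 at 279.9, 256, 228 and 261 TPM. All 4 HPLM/B27 libraries thus lay above all 12 others, on 109 to 140 reads against 47 to 120. Compared with Day 30 RPMI/B27, TRNI rose to 389 ± 9.30 TPM from 207 ± 25.1 TPM (SD, n = 4), which is 0.91 on the log2 scale (standard error 0.12, limma adjusted p = 0.000446). Compared with Day 16 the log2 fold change was 0.61 (standard error 0.12, adjusted p = 0.00152). Against RPMI_glcM/B27 it was 0.60 (standard error 0.12), and the adjusted p of 0.0590 missed the threshold, in a range of 0.0178 to 0.122 over the 11 alternatives that kept all libraries, 5 of them under 0.05. TRNI did not follow RNR1, since the HPLM/B27 libraries with 138 and 203 TPM of RNR1 held 398 and 394 TPM of TRNI and those with 6359 and 5889 TPM held 376 and 387 TPM.

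TRNT, the threonine tRNA, was lower on Day 30 than on Day 16 in all 3 media. It was at 1662, 1683, 1411 and 1415 TPM on Day 16 and at 871, 834, 649 and 1052 TPM on Day 30 in RPMI/B27. The RPMI_glcM/B27 libraries had 980.3, 924, 805 and 877 TPM and the HPLM/B27 libraries 727, 765, 873 and 616 TPM. No Day 30 library reached the lowest Day 16 library. Log2 fold changes from Day 16 were -0.87 in RPMI/B27 (limma adjusted p = 0.000702), -0.78 in RPMI_glcM/B27 (adjusted p = 0.000857) and -1.05 in HPLM/B27 (adjusted p = 7.32e-05), each with a standard error of 0.14. The 3 comparisons share the same Day 16 libraries. With TPM rescaled by median-of-ratios factors, the value in RPMI/B27 was -0.53 with an adjusted p of 0.0514. Between the Day 30 media TRNT passed in no comparison.

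TRNR, the arginine tRNA, was also lower on Day 30, by a smaller amount. It stood at 2194, 2604, 2079 and 2343 TPM on Day 16, at 1567, 1588, 1806 and 1423 TPM in RPMI/B27, at 1524, 1645, 1563 and 1845 TPM in RPMI_glcM/B27 and at 1856, 1921, 1937 and 1745 TPM in HPLM/B27. All 12 Day 30 libraries lay below the 4 Day 16 libraries. In limma the log2 fold changes were -0.53 (standard error 0.10, adjusted p = 0.00216), -0.49 (standard error 0.10, adjusted p = 0.00267) and -0.30 (standard error 0.10, adjusted p = 0.0360) in the same order of media. After median-of-ratios rescaling none of the 3 passed, at -0.19 (adjusted p = 0.486), -0.21 (adjusted p = 0.375) and 0.050 (adjusted p = 0.862), the last with its direction turned. The call of TRNR in HPLM/B27 was the less firm, since it kept the threshold in 6 of 19 alternatives and lost it in 7 of the 8 with a single library of either group left out (any but replicate 3 of Day 16), at adjusted p of 0.0536 to 0.111.

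TRNL1, the leucine tRNA that follows RNR2 on the map, was at 630.4, 569, 622 and 804 TPM on Day 16. On Day 30 it was at 269, 271, 558 and 488 TPM in RPMI/B27, at 425, 422, 428 and 492 TPM in RPMI_glcM/B27 and at 422, 298, 323 and 402 TPM in HPLM/B27. The Day 30 libraries lay below all Day 16 libraries, and within RPMI/B27 the higher pair were replicates 3 and 4, those of highest RNR1. TRNL1 fell in RPMI/B27 (log2 fold change -0.79, standard error 0.21, limma adjusted p = 0.0157). The fall in HPLM/B27 was -0.86 (standard error 0.21, adjusted p = 0.00718). In RPMI_glcM/B27 the value was -0.56 (standard error 0.21, adjusted p = 0.0660). Median-of-ratios rescaling left -0.45 (adjusted p = 0.408) in RPMI/B27 and -0.51 (adjusted p = 0.304) in HPLM/B27.

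TRNG (glycine) and TRNH (histidine) were lower in Day 30 RPMI/B27 than on Day 16, and TRNP (proline) was higher in RPMI_glcM/B27. TRNG was at 375, 400.1, 335 and 477 TPM on Day 16 and at 268, 255, 259.8 and 350.2 TPM in RPMI/B27, the last library overlapping with Day 16 (log2 fold change -0.48, standard error 0.14, limma adjusted p = 0.0256). TRNH was at 239, 344, 223 and 269 TPM on Day 16 and at 150.0, 155, 238 and 199 TPM in RPMI/B27, again with overlap (log2 fold change -0.54, standard error 0.16, adjusted p = 0.0275). TRNP was at 676, 756, 662 and 807 TPM on Day 16 and at 922, 889, 1008 and 1077 TPM in RPMI_glcM/B27, without overlap (log2 fold change 0.43, standard error 0.15, adjusted p = 0.0470). These 3 calls were not firm either. That of TRNP was lost in 10 of 19 alternatives, that of TRNG in 9 of 20 and that of TRNH in 8 of 20. TRNP lost it without any single library of either group except replicate 4 of Day 16, TRNG without replicate 1, 2 or 4 of Day 16 or replicate 3 of RPMI/B27 (adjusted p of 0.0513 to 0.0659), and TRNH without replicate 2 of Day 16 (0.0905) or replicate 1 of RPMI/B27 (0.0534). For TRNP those adjusted p were 0.0564 to 0.134.

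**Figure D3:**
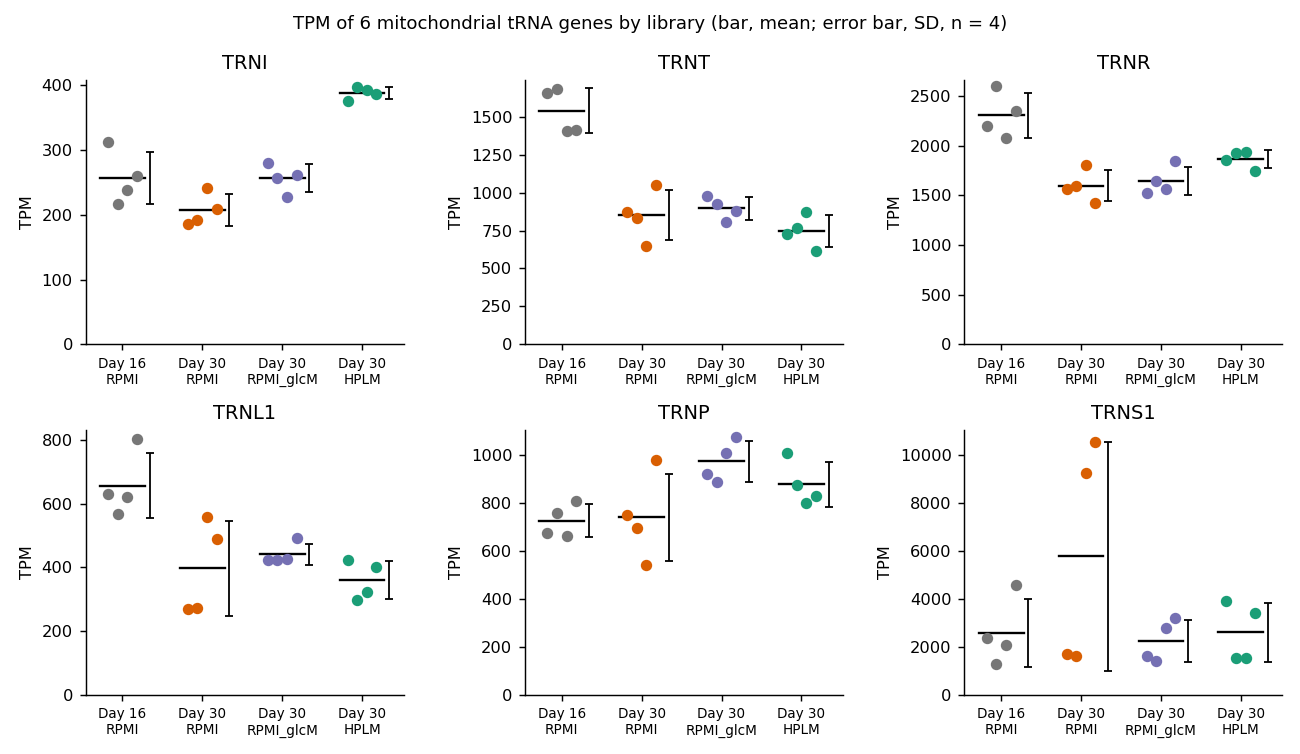
TPM of 6 tRNA genes in each library by group, on axes that start at 0, with the mean of each group as a bar and its SD (n = 4) as an error bar beside the points. TRNI is highest in the 4 HPLM/B27 libraries, TRNT, TRNR and TRNL1 are highest on Day 16, and TRNS1 reaches 10552 TPM in a single group whose other libraries start at 1624 TPM.

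Over the 23 members tested, 5 had an adjusted p under 0.05 between Day 30 and Day 16 in RPMI/B27, all lower (TRNG, TRNH, TRNL1, TRNR and TRNT), where 19.9% of all 16122 genes tested were called, 17.8% lower and 2.08% higher. In RPMI_glcM/B27 3 members were called, TRNR and TRNT lower and TRNP higher, beside 21.1% of all genes (17.8% lower, 3.34% higher). In HPLM/B27 4 were called, TRNL1, TRNR and TRNT lower and TRNI higher, beside 25.4% of all genes (22.4% lower, 3% higher). The members' shares were 21.7% in RPMI/B27, 17.4% in HPLM/B27 and 13% in RPMI_glcM/B27, near that of all genes in the first and below it in the others, and the 3 comparisons share the Day 16 libraries. TPM are shares of a fixed total, and over all genes the median difference from Day 16 on the log2 scale was -0.29 in HPLM/B27, -0.28 in RPMI/B27 and -0.22 in RPMI_glcM/B27, against 0.0075, 0.0065 and 0.015 after median-of-ratios rescaling. That rescaling also raised the higher share of all calls from 10.5% to 50% in RPMI/B27, from 15.8% to 50.6% in RPMI_glcM/B27 and from 11.8% to 52.9% in HPLM/B27. The members' own medians were -0.12 in RPMI/B27, -0.11 with RPMI_glcM/B27 and -0.055 with HPLM/B27.

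Taken relative to the median of all genes, TRNT stood at -0.60 in RPMI/B27, at -0.56 in RPMI_glcM/B27 and at -0.77 in HPLM/B27 on the log2 scale, and TRNI at 0.89 in HPLM/B27. TRNL1 stood at -0.52 in RPMI/B27 and -0.58 in HPLM/B27. TRNR stood at -0.25, -0.27 and -0.016 in these media, the last near the median of all genes. A ratio to RNR2 in the same library does not depend on the scaling. Per 1000 TPM of RNR2, TRNT was at 3.22 to 4.01 TPM on Day 16 and at 1.28 to 2.33 TPM on Day 30. TRNI was at 0.804 to 0.853 TPM in HPLM/B27 and at 0.436 to 0.737 TPM in all other libraries. TRNR was at 5.02 to 6.20 TPM on Day 16 and 2.96 to 4.12 TPM on Day 30. These ratios were chosen after the values had been seen, and they describe unequal change between RNR2 and the tRNAs without showing which of them changed.

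Between the Day 30 media few members differed. TRNI was called higher in HPLM/B27 than in RPMI/B27, 1 of 23 members where 2.41% of all genes were called (1.51% higher, 0.893% lower). Between RPMI_glcM/B27 and RPMI/B27, limma called 0 of 23, with 4 members at an unadjusted p under 0.05, where 2.2% of all genes were called (1.36% higher, 0.837% lower). TRNG was nearest, with 350.3, 365, 444 and 490.1 TPM in RPMI_glcM/B27 all above the highest RPMI/B27 library at 350.2 TPM (log2 fold change 0.54, standard error 0.14, adjusted p = 0.0575). HPLM/B27 was also compared with RPMI_glcM/B27, where limma called 0 of 23, with TRNI as the single member at an unadjusted p under 0.05, beside 0.0682% of all genes called (0.0496% higher, 0.0186% lower). limma-voom on recovered reads also called 0 members in each of these last comparisons.

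**Figure D4:**
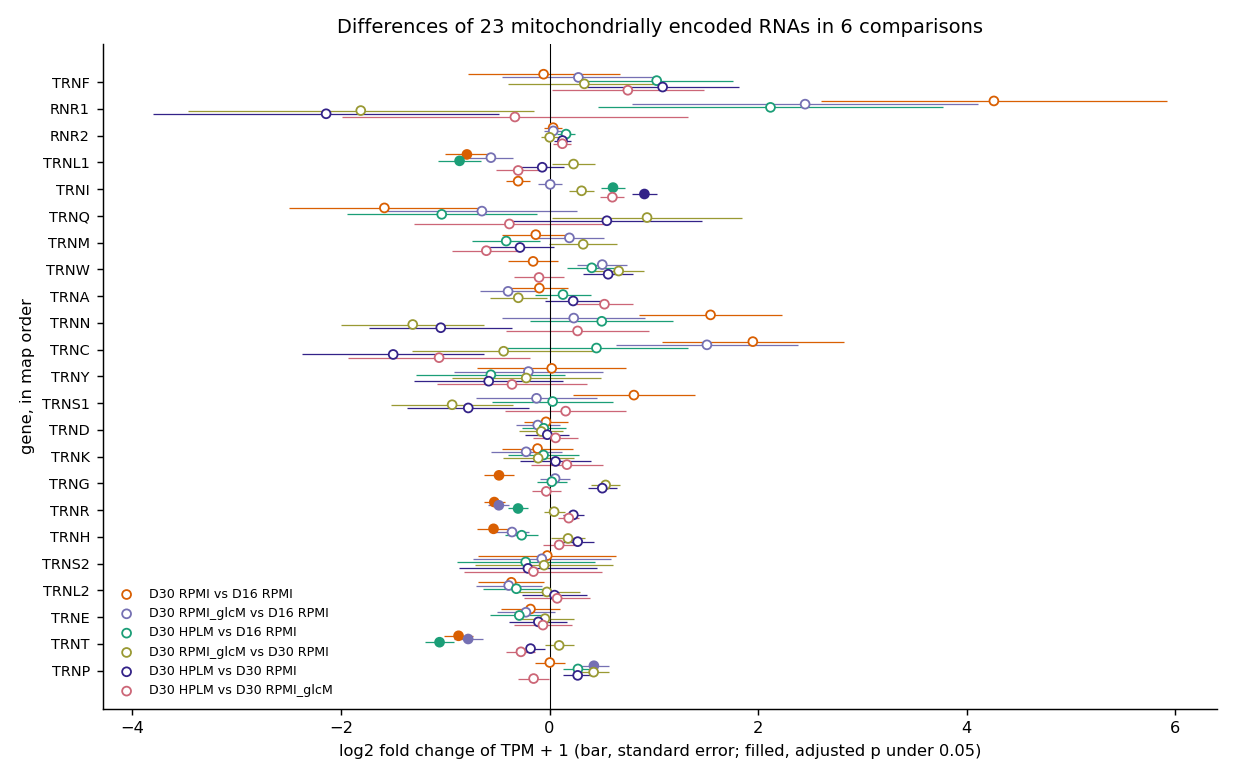
Log2 fold change of TPM + 1 for the 23 mitochondrially encoded RNAs tested, in map order, in 6 comparisons, with the standard error as a bar and filled points for an adjusted p under 0.05 (limma). TRNT and TRNR are filled on the negative side in all 3 comparisons with Day 16, TRNI is filled on the positive side in HPLM/B27 against Day 16 and against RPMI/B27, and RNR1 has the longest error bars.

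The other tRNAs passed in no comparison. On the heavy-strand transcript, TRND (aspartate) ranged from 841 to 1624 TPM over the 16 libraries, TRNL2 (leucine, CUN codons) from 399 to 1197, TRNK (lysine) from 282 to 864, TRNW (tryptophan) from 70.0 to 237, TRNM (methionine, also the initiator) from 24.6 to 83.5 and TRNS2 (serine, AGY codons) from 4.62 to 59.2. On the light-strand transcript, TRNE ranged from 888 to 2479 TPM and TRNA (alanine) from 63.2 to 183. TRNM and TRNS2 rest on few reads, 7 to 31 and 1 to 18 per library.

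Some tRNAs varied with RNR1 from library to library, to differing degrees. TRNC (cysteine), TRNY (tyrosine), TRNS1 (serine, UCN), TRNE (glutamate) and TRNP were highest in the library of highest RNR1 in 4 of 4 groups. They belong to the light-strand set, but the remaining light-strand tRNAs TRNN, TRNA and TRNQ were so in 3, 1 and 2 groups, and heavy-strand TRND, TRNK, TRNL1, TRNM and TRNG in 3. TRNP was lowest of all libraries, at 540.0 TPM, in replicate 3 of Day 30 RPMI/B27, where RNR1 was at 14387 TPM. TRNC ran from 8.05, 7.56 and 4.16 TPM to 75.6 TPM in replicate 4 on Day 16, the library with 3793 TPM of RNR1. In Day 30 RPMI/B27 it was at 12.4, 22.4, 114 and 189 TPM and in RPMI_glcM/B27 at 22.8, 13, 61.9 and 95.2 TPM. In HPLM/B27 it was at 25.4, 10.1, 14.7 and 22.3 TPM, on 3 to 8 reads. TRNY was at 161, 52.9, 129 and 261 TPM on Day 16, at 82.5, 30.8, 249 and 475 TPM in Day 30 RPMI/B27, at 49.4, 82.1, 176 and 228 TPM in RPMI_glcM/B27 and at 168, 93.9, 44.1 and 85.4 TPM in HPLM/B27. For TRNY the highest library stood 15.4-fold above the lowest. TRNC and TRNN (asparagine), the latter at 6.84 to 130.5 TPM, had as few as 1 and 2 reads in their lowest libraries, under the limit of 3 reads, so no such ratio is given for them.

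TRNS1 had the most reads of this set. It was at 2367, 1277, 2066 and 4563 TPM on Day 16, at 1697, 1624, 9235 and 10552 TPM in Day 30 RPMI/B27, at 1625, 1396, 2798 and 3175 TPM in RPMI_glcM/B27 and at 3913, 1524, 1524 and 3405 TPM in HPLM/B27. Its share of all tRNA reads ran from 11.4% to 47.3%, the highest shares being those of replicates 3 and 4 of Day 30 RPMI/B27. The 8 light-strand tRNAs together ranged 4.35-fold between libraries, from 3431 to 14928 TPM, and the 14 heavy-strand tRNAs 1.82-fold, from 4964 to 9055 TPM. Without TRNS1 the other 7 light-strand tRNAs ranged 2.42-fold, from 1807 to 4375 TPM. In all 6 comparisons the groups overlapped for TRNS1 and it was not called.

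As a description over the 16 libraries, which share 4 culture conditions and differ in depth, the Spearman correlation with RNR1 was 0.90 for TRNC, 0.83 for TRNN, 0.79 for TRNS1 and 0.62 for TRNY. It was 0.48 for TRNE and 0.43 for TRNP, below the 0.59 of TRND and the 0.54 of TRNK, 0.06 for TRNA and 0.05 for TRNQ, and -0.53 for TRNR and -0.51 for TRNT. The nuclear genes of at least 10 TPM whose pattern was most like that of RNR1 were RPS27 (0.97), TCEAL9 (0.96), ATP5IF1 (0.96), NDUFB1 (0.95) and PNN (0.91). RPS27, a protein of the cytosolic ribosome, ran from 25.3 to 268 TPM. Gene length moved with this pattern. Among the 6812 genes compared, the 28 with a correlation above 0.8 had a median length of 1134.5 bases and the 866 below -0.8 had 5531.5 bases, against 4083 for all. The part of fragment length or RNA quality in this was not tested.

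**Figure D5:**
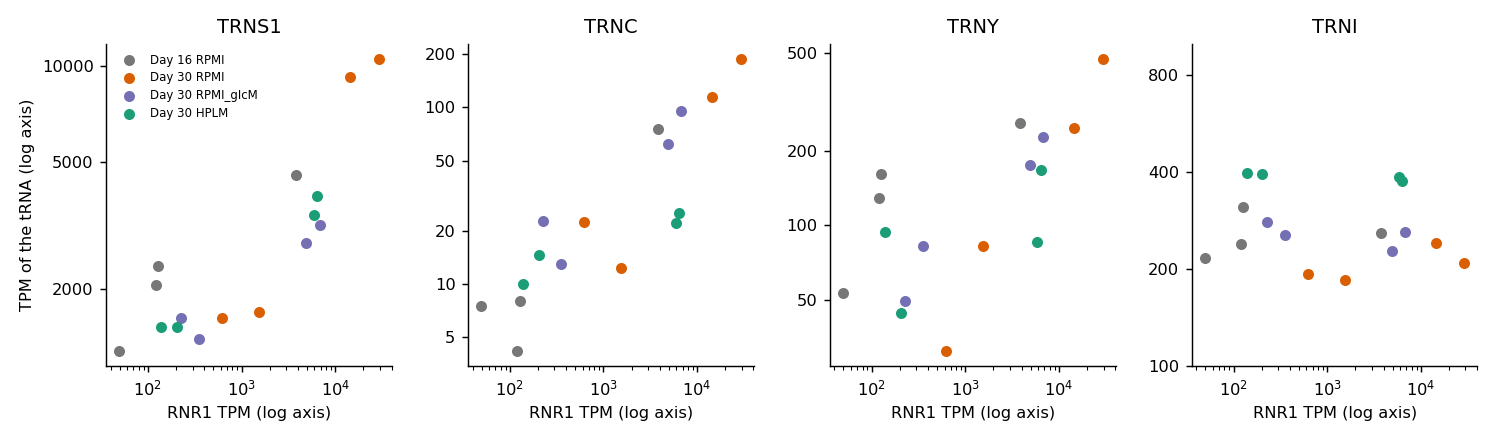
TPM of TRNS1, TRNC, TRNY and TRNI against the TPM of RNR1 in the 16 libraries, both axes logarithmic and coloured by group. TRNS1 and TRNC are highest where RNR1 is highest, whereas the 4 HPLM/B27 libraries stay at 376 to 398 TPM of TRNI at any level of RNR1.

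Replicates 3 and 4 of Day 30 RPMI/B27 weighed on the comparisons that use this group. Without both of them, an alternative added after the data had been seen, 8 members were called lower than on Day 16 in place of 5, with TRNI (log2 fold change -0.43, limma adjusted p = 0.0369), TRNL2 (-1.03, adjusted p = 0.0299) and TRNE (-0.85, adjusted p = 0.0119) beside the 5. Of all genes 9.63% were then called in that comparison, 5.32% lower. RPMI_glcM/B27 then stood above RPMI/B27 for 4 members in place of 0 (TRNL1, TRNI, TRNG and TRNP) and HPLM/B27 for 4 in place of 1 (TRNI, TRNG, TRNH and TRNE), where 10.3% and 20.7% of all genes were called, 1.04% and 1.52% higher. The median of all genes was at -0.21 and -0.27 on the log2 scale in those comparisons. Without replicate 4 alone the counts of these last 2 comparisons were 2 and 2, beside 2.38% and 3.21% of all genes. TRNI in HPLM/B27 against RPMI/B27 was at 1.04 (adjusted p = 0.000459) without both libraries. Both were picked by their RNR1, itself a member, while libraries with 3793 to 6806 TPM of RNR1 in the other groups stayed in. Members high in the 2 libraries were bound to come out lower in RPMI/B27. TRNL2, for example, was at 964 and 1197 TPM in them and at 399 and 455 TPM in replicates 1 and 2. The added calls follow from that choice and are no support for a difference.

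Some nuclear genes can take up reads of RNR2, because the nuclear genome holds near-identical copies of it. Of the 11 genes named MTRNR2L, 2 exceeded 100 TPM in mean, MTRNR2L2 at 7531 to 31406 TPM and MTRNR2L8 at 1240 to 3189 TPM. MTRNR2L2 was highest in the library of highest RNR1 in 4 of 4 groups and was called in no comparison. MTRNR2L8 was also highest in that library in 4 of 4 groups. It was lowest of all libraries, however, in replicate 3 of Day 30 RPMI/B27, where RNR1 was at 14387 TPM. Its Spearman correlation with RNR1 was 0.26, against 0.87 for MTRNR2L2. MTRNR2L8 was higher than in Day 30 RPMI/B27 in RPMI_glcM/B27 (log2 fold change 0.72, limma adjusted p = 0.0133) and in HPLM/B27 (0.65, adjusted p = 0.0217). Compared with Day 16 it was also higher in RPMI_glcM/B27 (0.63, adjusted p = 0.00493) and HPLM/B27 (0.56, adjusted p = 0.00950). Counts of RNR2 and MTRNR2L2 are uncertain to the extent that reads were split between them.

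The genes that copy, transcribe, process and translate from mitochondrial DNA, or help to maintain it, are encoded in the nucleus. Of 86 such genes tested, 26 were lower and 0 higher on Day 30 than on Day 16 in RPMI/B27. In RPMI_glcM/B27 9 were lower and 1 higher, and in HPLM/B27 12 lower and 1 higher. The shares called were 30.2%, 11.6% and 15.1% in this order of media, beside 19.9%, 21.1% and 25.4% of all genes. Only the share in RPMI/B27 thus lay above that of all genes. The medians of the 86 genes were -0.38, -0.19 and -0.29 on the log2 scale, beside -0.28, -0.22 and -0.29 for all genes. Between HPLM/B27 and RPMI_glcM/B27, 0 of the 86 were called, beside 0.0682% of all genes. The 8 transcription genes of the list had 0 calls in all 6 comparisons by limma. Among the 21 aminoacyl-tRNA synthetase genes, which charge tRNAs with amino acids, 11 were lower in RPMI/B27, 5 in HPLM/B27 and 2 in RPMI_glcM/B27. Of all genes 17.8%, 22.4% and 17.8% were called lower in the same order. Counts and calls of nuclear genes, here and below, come from the main fit only, and their dependence on the scaling was not tested. Over all genes, RPMI/B27 against Day 16 had 2867 lower and 336 higher calls in that fit. With median-of-ratios scaling it had 1413 lower and 1413 higher, so a predominance of lower calls depends on the scale.

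SLC25A4, the heart-type ADP/ATP carrier of the inner membrane, was at 102 ± 14.1 TPM on Day 16, 106 ± 27.8 in RPMI/B27, 180.2 ± 10.6 in HPLM/B27 and 166 ± 3.83 in RPMI_glcM/B27 (SD, n = 4). It was called higher in RPMI_glcM/B27 (log2 fold change 0.67, limma adjusted p = 0.0226) and HPLM/B27 (0.79, adjusted p = 0.00783) than in RPMI/B27. This carrier, counted with mitochondrial DNA maintenance, was also the 1 gene of the 86 called higher than on Day 16 in each of these media. MGME1, an exonuclease of mitochondrial DNA replication, fell from 13.3 ± 1.19 TPM on Day 16 to 6.59 ± 1.79 in RPMI_glcM/B27 and 7.03 ± 0.683 in HPLM/B27 (log2 fold changes -0.94 and -0.83, limma adjusted p = 0.000838 and 0.00214). FASTKD1, a regulator of mitochondrial mRNA, and MARS2, which charges the methionine tRNA, were higher in both RPMI_glcM/B27 and HPLM/B27 than in RPMI/B27. On Day 16 FASTKD1 was at 19.99 ± 0.948 TPM, and in RPMI/B27 it fell to 12.1 ± 3.14 TPM (SD, n = 4). That fall was called (log2 fold change -0.71, limma adjusted p = 0.00353). FASTKD1 was at 19.8 ± 2.41 TPM in HPLM/B27 and 19.7 ± 0.708 in RPMI_glcM/B27 (SD, n = 4), both overlapping with Day 16. NGRN, needed for the stability of the large rRNA, was lower in RPMI_glcM/B27 at 82.3 ± 8.90 TPM than in RPMI/B27 at 116 ± 13.7 (SD, n = 4, log2 fold change -0.49, limma adjusted p = 0.0393).

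The enzymes that charge the tRNAs with the clearest differences were looked up after the tRNA values had been seen. IARS2, for isoleucine, was at 98.7 ± 10.3 TPM on Day 16, 72.6 ± 21.1 in RPMI/B27, 93.6 ± 8.57 in HPLM/B27 and 90.1 ± 9.19 in RPMI_glcM/B27 (SD, n = 4) and passed in no comparison. TARS2 for threonine and RARS2 for arginine also passed in none, with log2 fold changes from Day 16 of -0.53 to -0.44 and of -0.39 to -0.36. LARS2 for leucine fell in RPMI/B27 (log2 fold change -0.63, limma adjusted p = 0.0194).

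Respiratory chain complexes join mitochondrially and nuclear-encoded subunits. Of 74 nuclear subunits of complexes I, III, IV and V tested, 13 were lower on Day 30 in RPMI/B27 than on Day 16, a share of 17.6% beside 17.8% of all genes. In RPMI_glcM/B27 7 were higher than on Day 16 and in HPLM/B27 5, beside 3.34% and 3% of all genes. Against Day 30 RPMI/B27, 10 were higher in RPMI_glcM/B27 and 13 in HPLM/B27, beside 1.36% and 1.51% of all genes. Their medians on the log2 scale were 0.32 and 0.31, beside 0.047 and -0.020 for all genes. The mitochondrially encoded members tested had medians of 0.0014 and 0.048 in those comparisons. Between HPLM/B27 and RPMI_glcM/B27, limma called 0 of the 74 nuclear subunits, beside 0.0682% of all genes. Their median there was -0.018, beside -0.064 for all genes.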

How the data were processed

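The authors used a stranded Takara SMARTer kit on total RNA, aligned the reads to hg38 with STAR 2.5.3a and counted them on genes with featureCounts 2.0.3 (submitters' processing notes and methods). The authors deposited TPM per gene. The annotation, gene lengths, strand setting and tool behind the TPM are not given in the sources used here. Values of log2(TPM + 1) were compared by limma 3.58.1 under R 4.3.3 (trend in eBayes) where the mean TPM was 1 or more, with all 4 groups in the fit, 6 comparisons, Benjamini-Hochberg adjustment over 16122 genes and a threshold of 0.05. On this scale fold changes of low genes are understated. On simulated data for HPLM/B27 against RPMI/B27, with 200 genes changed by 1.5 on the log2 scale, 177 of the 194 tested were recovered with 6 false calls. The simulated spread was the same for every gene, without shifts of whole libraries like those seen with RNR1, so recovery in the real data may be lower.

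Whole reads were recovered for 31046 of 31047 genes above 0. A single read on 1000 bases is 0.139 to 0.314 TPM, and counting floors cover counting error only. Every member was named. Of nuclear lists, at most 4 called genes without overlap per direction and comparison were eligible by largest change, and the 5 genes most like RNR1 by Spearman correlation. Members and lists were chosen with earlier results of these data known. Alternatives were a pseudocount of 0.1, all genes above 0, a mean of at least 5 TPM, 3 other scalings, 2 groups in the fit, a replicate block, RNR1 as a covariate, limma-voom on recovered reads (mean of at least 10) and each library left out. Tables were handled in Python 3.11.15 with pandas 2.3.3 and sequences read from the hg38 genome at RefSeq positions.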

Additional observations from a re-analysis of the deposited data

Results flagged for a closer look

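In each group of 4 libraries, the gap between the highest or lowest library and its neighbour was set against the range of the group (Dixon's 95% critical value), for the 19 members with a mean of at least 10 reads. Of 76 groups tested 5 exceeded it, and chance gives about 1 in 20. RNR1 was at 3793 TPM in replicate 4 of Day 16, where the other 3 libraries held 49.5 to 127 TPM. In the same library TRNC was at 75.6 TPM against 4.16 to 8.05 TPM. TRNM, in the RPMI/B27 library with the most RNR1 (replicate 4, Day 30), was at 83.5 TPM against 35.3 to 40.1 TPM and TRNG there was at 350.2 TPM against 255 to 268 TPM. TRNL1 was at 492 TPM in replicate 4 of Day 30 RPMI_glcM/B27 against 422 to 428 TPM, and that library also held the highest RNR1 of its group. The 4 flagged tRNA values were in the library of highest RNR1 of their group, and the cause was not tested.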

How the results depend on the processing

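Of the differences of single tRNAs recomputed under the alternatives, 218 results kept direction and side of the threshold, 48 lost the threshold, 5 gained it and 1 reversed, TRNR in HPLM/B27 against Day 16 at 0.050 after median-of-ratios scaling. TRNI kept its call under every alternative run in HPLM/B27 against Day 16 (19) and against RPMI/B27 (20). Against RPMI_glcM/B27 it gained one in 5 of 19. The count of members called in Day 30 RPMI/B27 against Day 16, 5, became 0 with median-of-ratios scaling, 3 with TPM scaled without mitochondrial and ribosomal RNA genes, 2 without RNR1, RNR2 and RN7SK in the total, 2 with 2 groups in the fit, 3 with limma-voom and 8 without both RPMI/B27 libraries of highest RNR1. The share of all genes called there, 19.9%, became 17.5%, 25.0%, 16.5%, 6.19%, 23.9% and 9.63% in the same order. HPLM/B27 against Day 16 went from 4 to 2 without RNR1, RNR2 and RN7SK in the total, beside 25.4% and 20.8% of all genes. RPMI_glcM/B27 against RPMI/B27 went from 0 to 1 with a mean of at least 5 TPM, with RNR1 as a covariate or with a mean of at least 10 reads, and to 4 without both libraries. The share of all genes went from 2.2% to 3.12%, 4.51%, 3.38% and 10.3% in that order. HPLM/B27 against RPMI/B27 went from 1 to 2 with RNR1 as a covariate and to 4 without both, beside 2.41%, 6.85% and 20.7% of all genes. HPLM/B27 against RPMI_glcM/B27 went from 0 to 1 (TRNI) with either of the scalings that leave out rRNA, with 2 groups in the fit, with RNR1 as a covariate and with a mean of at least 10 reads. Of all genes 0.521% and 0.583% were called with these scalings, against 0.0682% in the main fit. The shares were 0.205% with 2 groups, 0.564% with the covariate and 0.383% with the mean of at least 10 reads. The filter on reads and the removal of both libraries were chosen after seeing the data, and the removal by the value of a member. Leaving out each library in turn gave 4 to 7 calls, 2 to 4 and 3 to 4 against Day 16 in RPMI/B27, in RPMI_glcM/B27 and then in HPLM/B27, 0 to 2 for RPMI_glcM/B27 and 1 to 2 for HPLM/B27 against RPMI/B27, and 0 for HPLM/B27 against RPMI_glcM/B27. Of all genes 10.9% to 31.3%, 14.4% to 20.6% and 17.4% to 25.5% were then called against Day 16. Between the Day 30 media the shares were 0.894% to 2.73%, 1.15% to 3.21% and 0.0062% to 0.0310%, in the same order. With the replicate block the counts that moved were 8 (3 higher, RNR1, TRNN and TRNC, and 5 lower) in RPMI/B27 against Day 16, 2 in RPMI_glcM/B27 and 2 in HPLM/B27 against RPMI/B27. Of all genes the block called 29.4% in RPMI/B27 against Day 16. Against RPMI/B27 it called 4.47% for RPMI_glcM/B27 and 4.54% for HPLM/B27. The block also turned the call of RNR1 (adjusted p = 0.0121). The labels do not say that a number marks a shared origin, and 11 of the 24 same-numbered pairs correlated over 0.1 (-0.15 to 0.42, median 0.080, against -0.034 for other pairs). Of the 16 libraries 9 correlated best with their own number, a count for which no chance level was computed. Replicate 4 exceeded 1000 TPM of RNR1 in 4 of 4 groups, replicates 1 and 3 in 2 each and replicate 2 in 0. Whether libraries of the same number share an origin was not tested, nor was the cause of the moves in the counts. Depth limits the 5 tRNAs with a mean under 10 reads, and the planned sums over the 13 mRNAs were not run.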
